A study of Mus musculus with 6 samples.

Results

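The genes of osteoprotegerin (Tnfrsf11b), RANK (Tnfrsf11a), RANKL (Tnfsf11) and TRAIL (Tnfsf10) had 27 open chromatin regions among the 75738 regions found in 3 sorted populations of mouse epidermal cells. Openness was read from ATAC-seq, a method that uses a transposase to fragment and tag accessible DNA. A region is called open in a library that has a peak in it. Peaks of all 6 libraries that overlapped were merged into regions, and each region was given to the nearest protein-coding gene span within 50 kb (mm10). That placed 62802 regions at a gene, of which 9 were at Tnfrsf11b, 8 at Tnfrsf11a, 6 at Tnfsf11 and 4 at Tnfsf10. The median over genes with any region was 2. The members were picked with peak presence in these libraries already known, so presence at them is a description and carries no test.

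The mice were on a C57BL/6 background and carried TNC-CREER, a tamoxifen-dependent Cre driven by Tnc, with a tdTomato reporter. All 3 populations came from back skin of such animals at postnatal day 60, after tamoxifen (100 µg per g) on days 51 and 52. Touch dome (TD) cells, keratinocytes of the small patches that hold Merkel cells, were sorted as positive for EPCAM, SCA1, α6-integrin and tdTomato. Cells of the interfollicular epidermis (IFE) had the first 3 markers without tdTomato. Hair follicle (HF) cells had EPCAM and α6-integrin and lacked the other markers. There were 2 libraries per population, from 50000 cells each, and the labels do not say whether these came from different animals, so their spread may be technical. TD is thus defined by a history of Tnc activity at the time of tamoxifen and not by position in the skin.

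RANKL, a TNF family ligand, binds the receptor RANK, which signals through TRAF6 to NF-κB and, in osteoclast precursors, to NFATc1. Osteoprotegerin is a secreted decoy receptor that binds RANKL and keeps it from RANK, and it also binds TRAIL, a ligand that can trigger apoptosis through a death receptor. The axis is best known from bone, but RANKL is also made by keratinocytes, and RANK is found on Langerhans cells and in the follicle.

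The 4 genes fell into 3 arrangements. Tnfrsf11b had 6 of 9 regions open in both TD and both HF libraries and in neither IFE library, against 3.28% of all regions placed at a gene. Tnfsf11 and Tnfsf10 had 2 of 6 and 2 of 4 regions open in both TD and both IFE libraries and in neither HF library, against 6.31%. At Tnfrsf11a, 4 of 8 regions were open in all 6 libraries, which is near the 48.2% of all placed regions.

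**Figure D1:**
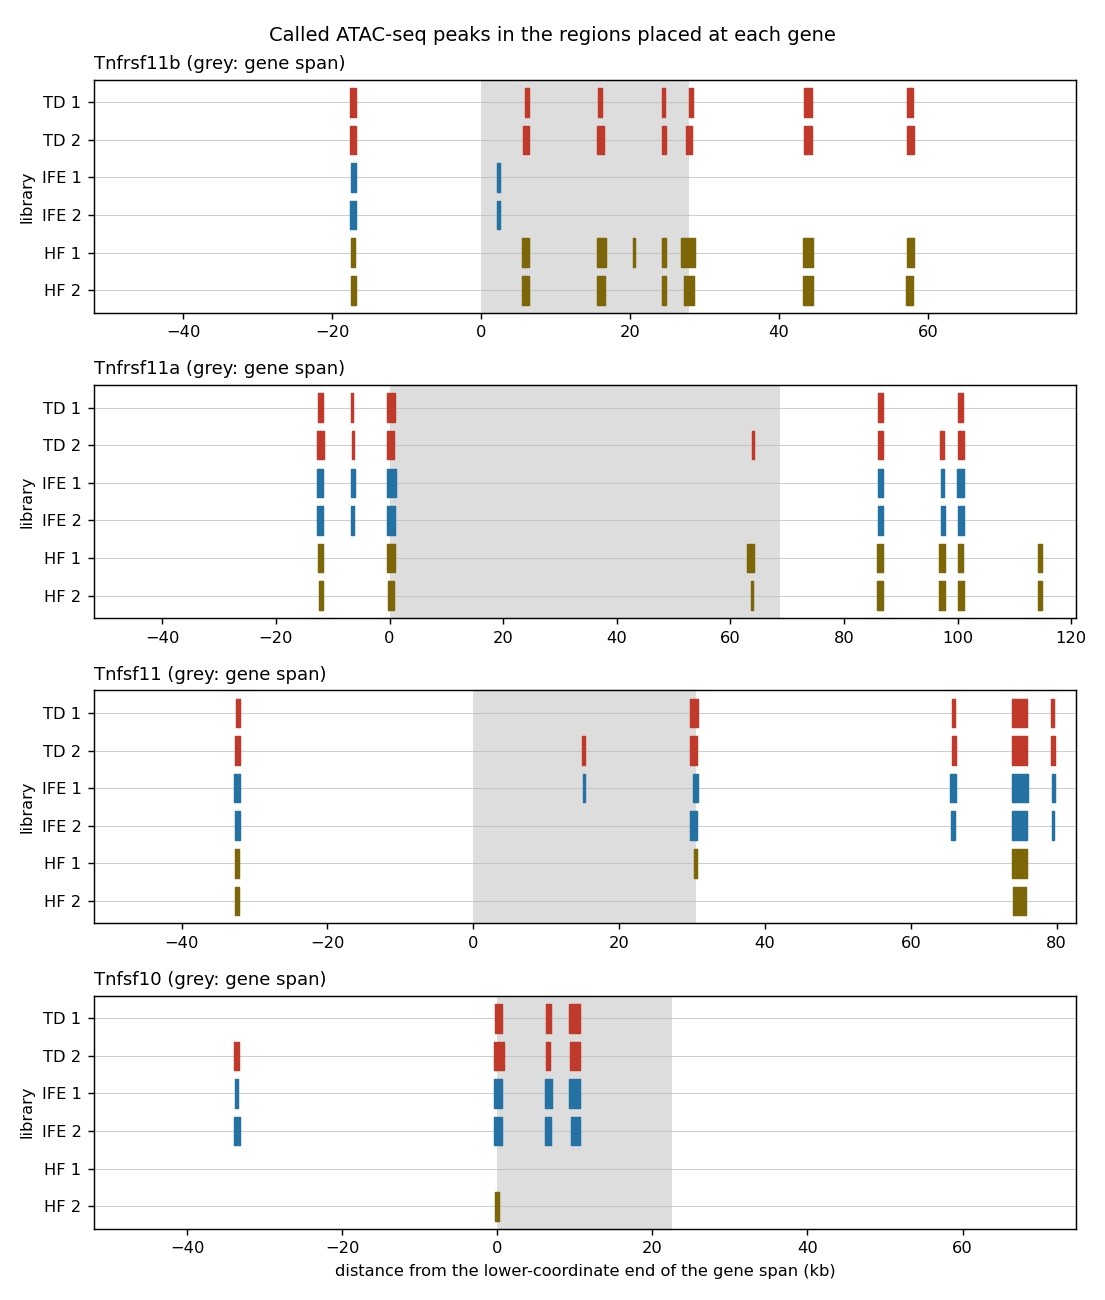
Peaks called in each library (rows; TD touch dome, IFE interfollicular epidermis, HF hair follicle, 1 and 2 the replicates) in the regions placed at the 4 genes, by distance in kb from the lower-coordinate end of the gene span (grey). The IFE rows are empty over the 52.6 kb of Tnfrsf11b where TD and HF share 6 regions, and the HF rows hold 1 peak at Tnfsf10. Peaks in regions nearer to another gene are not drawn.

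Promoter sequence from RefSeq (GRCm38.p6, the assembly behind mm10) matched 3 of the 4 members, and it is shown because a peak lies over each of these promoters in TD and IFE while HF differs between them. Only bases before the gene span are given, 5′ to 3′ on the gene's strand. Capitals mark matches, on either strand, to the KLF/SP letters CACCC or to the TATA box letters TATAAA.
Tnfrsf11a, chr1:105780473-105780672, plus strand: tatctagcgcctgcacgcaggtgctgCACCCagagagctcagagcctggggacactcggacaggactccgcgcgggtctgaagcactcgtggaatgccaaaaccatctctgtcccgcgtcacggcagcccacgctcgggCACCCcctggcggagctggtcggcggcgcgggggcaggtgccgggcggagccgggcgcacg
Tnfsf11, chr14:78308044-78308293, minus strand: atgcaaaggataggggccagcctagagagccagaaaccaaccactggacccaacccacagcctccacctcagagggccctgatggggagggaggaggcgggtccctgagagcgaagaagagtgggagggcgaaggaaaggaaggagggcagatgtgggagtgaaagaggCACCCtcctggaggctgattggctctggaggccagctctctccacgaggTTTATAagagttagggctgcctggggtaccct
Tnfsf10, chr3:27316827-27317076, plus strand: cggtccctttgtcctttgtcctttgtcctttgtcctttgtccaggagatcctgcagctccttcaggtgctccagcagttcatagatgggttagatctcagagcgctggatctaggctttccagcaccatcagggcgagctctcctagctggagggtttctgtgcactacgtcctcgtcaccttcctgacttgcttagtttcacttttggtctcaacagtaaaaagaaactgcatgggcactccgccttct

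The Tnfrsf11a sequence was rich in G and C (71.0%, against a median of 51.5% over the same 200 bases of 32851 RefSeq promoters) and held 22 CG pairs, against a median of 4. The Tnfsf11 sequence had 60.4% G and C with 4 CG pairs, and the Tnfsf10 sequence 51.6% with 6, against medians of 52.4% and 6 over 250 bases. CACCC occurred 2 times before Tnfrsf11a, 1 time before Tnfsf11 and 0 times before Tnfsf10. It is a common string, present in 44.4% of all promoters over 200 bases and in 52% over 250. The TATAAA match before Tnfsf11 was on the opposite strand and began 32 bases before the start site. TATAAA was found in 12.4% of promoters. Neither TGANTCA (AP-1), TGTGGT (RUNX), CTTTGA (TCF/LEF) nor AACNNGTT (Grainyhead) was in any of the 3 windows on either strand. Over 250 bases these were held by 6.75%, 14%, 13.8% and 3.64% of promoters. CANNTG (E-box), left in lower case, occurred 2 times before Tnfrsf11a and 1 time before each ligand gene, and no 2 different motifs overlapped. A match in this window is a description of the letters and not of a bound factor.

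Peaks covered the 3 promoters to different degrees. All 200 Tnfrsf11a bases lay inside a peak in every library, as did all 250 Tnfsf10 bases in the TD and IFE libraries. In HF, 0 of the Tnfsf10 bases were covered in replicate 1 and 245 in replicate 2. At Tnfsf11 the covered bases were 166 and 82 in TD, 203 and 132 in IFE, and 33 and 0 in HF, so HF lay below every other library. Of all RefSeq promoter windows (300 bases), 38.5% had a peak in all 6 libraries, and 0.514% had one in both TD, both IFE and 1 of 2 HF libraries, the state of both ligand promoters.

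Tnfrsf11b, the decoy receptor gene (chr15:54250619-54278484), had peaks in 7 and 7 of its 9 regions in TD, 2 and 2 in IFE, and 8 and 7 in HF. The share of its region length under peaks was 56.9% and 71.3% in TD, 12.4% and 13.5% in IFE, and 86.3% and 77.4% in HF. Both IFE libraries were low and overlapped with neither of the other populations. Over all placed regions IFE peaks covered 69.7% and 65.1%. The share of all genes with such a gap is not given here. The 6 regions shared by TD and HF ran over 52.6 kb, from inside the gene span to sequence beyond its upper end. Going up the chromosome they were chr15:54256090-54257102, chr15:54266127-54267394, chr15:54274843-54275487, chr15:54277411-54279303, chr15:54293820-54295176 and chr15:54307747-54308725. The first 3 lay inside the gene span, the fourth across its upper end, and the last 2 lay 15.3 and 29.3 kb above it.

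The region across the upper end of Tnfrsf11b was the widest of the locus, at 1893 bp. Peaks covered 609 and 904 bp of it in TD, 0 and 0 in IFE, and 1893 and 1266 in HF, with no overlap between the populations. At chr15:54293820-54295176 the values were 1057 and 1108 bp in TD, 0 and 0 in IFE, and 1289 and 1357 in HF. At chr15:54266127-54267394 they were 513 and 975, 0 and 0, and 1182 and 1099 bp. At these 3 regions both HF libraries were above both TD libraries, while at the other 3 the TD and HF values overlapped. Summed over the 6 regions, TD covered 4075 and 5351 bp and HF 6690 and 6170 bp of 7155. Wider HF peaks were usual at such regions. Over all 2058 regions open in both TD and both HF and in neither IFE library, both HF libraries exceeded both TD libraries at 65.1%, and the reverse held at 3.74%, so 3 of 6 and 0 of 6 at Tnfrsf11b were near the background.

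The other 3 regions of Tnfrsf11b did not follow this arrangement. One below the gene, chr15:54232945-54233843, was open in all 6 libraries, with 898 and 884 bp in TD, 708 and 814 in IFE and 549 and 598 in HF. IFE did therefore have a peak near the gene, 16.8 kb from its lower end. Inside the span, chr15:54252776-54253159 was the only region of the 27 with a peak in both IFE libraries alone, covering 373 and 365 bp. The narrowest region, chr15:54271023-54271326, had a peak in HF replicate 1 alone. Beyond the 50 kb limit, the nearest regions on either side, 72.6 kb below and 74.9 kb above the span, were open in all 6 libraries.

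Regions open in both TD and both HF libraries and in neither IFE library made up 3.28% of all regions placed at a gene. Tnfrsf11b had 6 of 9. Of 15447 genes with regions, 13 had 6 or more of this kind, and Tnfrsf11b was the 1 gene among them with no more than 9 regions in all. It was chosen with this known, so the rank describes the gene and supports nothing. Some genes of the sort and of the follicle had regions of this kind. There were 5 of 17 at Tnc, which drove the reporter, and 8 of 73 (11.0%) over the follicle list. By gene the follicle list had 3 of 15 at Lgr5, 2 of 7 at Cd34 and 2 of 15 at Lhx2. Nfatc1 had 1 of 27 and Sox9 0 of 9. Markers of other cell types also had such regions. The melanocyte list had 6 of 27 (22.2%), with 5 of 20 at Mitf, the lineage regulator, and 1 of 2 at Dct. Pmel had 0 of 2 and Mlana 0 of 3. The fibroblast list had 2 of 12 (16.7%), with 1 of 7 at Pdgfra and 1 of 4 at Col1a1, while Dcn had 0 of 1. Over the whole melanocyte list, 4 of 6 genes had regions, 27 in all, open at 18 and 23 in TD, 14 and 15 in IFE, and 22 and 23 in HF, while Tyr and Kit had none. Of the fibroblast list, 3 of 4 genes had regions, 12 in all, open at 7 and 9 in TD, 5 and 3 in IFE, and 11 and 10 in HF, while Lum had none. The sort required EPCAM and α6-integrin, and its purity could not be read from the peak lists. The part of melanocytes and fibroblasts in the result at Tnfrsf11b was not tested.

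Tnfrsf11a, the gene of the signalling receptor RANK (chr1:105780673-105849444), was open in all populations. Peaks were called at 5 and 7 of 8 regions in TD, 6 and 6 in IFE, and 7 and 7 in HF. The covered share was 52.1% and 70.3% in TD, 69.5% and 63.7% in IFE, and 77.5% and 67.7% in HF, so all 3 populations overlapped. The region at the gene's start, chr1:105780202-105781766, had 1392 and 1334 bp under peaks in TD, 1556 and 1401 in IFE, and 1325 and 1061 in HF. The other 3 regions open in every library lay 11.5 kb below and 17.0 and 31.1 kb above the span. Summed over the 4, covered length was 4142 and 4718 bp in TD, 4792 and 4405 in IFE and 3955 and 3896 in HF, with both HF libraries the lowest. How often HF is lowest at other regions open in all 6 libraries is not given here, so the order may be common.

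The remaining 4 regions of Tnfrsf11a differed between libraries, each in its own way. Upstream, 6.6 kb before the start site, chr1:105773807-105774508 was open in TD (373 and 428 bp) and IFE (628 and 571 bp) and in neither HF library. At the far end, chr1:105894848-105895506 had peaks in HF alone (659 and 588 bp), 45.4 kb above the span and thus close to the limit. Inside the span, chr1:105843646-105844809 had 1134 and 452 bp in HF, 356 bp in TD replicate 2 and none in the other libraries. Finally, chr1:105877438-105878408 had a peak in every library except TD replicate 1. The next region up, 56.8 kb from the span and outside the limit, was open in all 6 libraries.

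Tnfsf11, the RANKL gene (chr14:78277446-78308043), had peaks at 5 and 6 of 6 regions in TD, 6 and 5 in IFE, and 3 and 2 in HF. The covered share was 75.8% and 88.8% in TD, 89.9% and 78.5% in IFE, and 52.4% and 40.2% in HF. TD and IFE overlapped, and both HF libraries lay below them. Over all placed regions HF peaks covered 69.1% and 68.1%. The start site lies in chr14:78307109-78308246, where peaks covered 1052 and 1017 bp in TD, 744 and 1067 in IFE, and 359 and 0 in HF. Distal regions upstream, centred 35.2 and 48.9 kb before the start site, were open in both TD and both IFE libraries and had no HF peak. The first, chr14:78342828-78343617, had 408 and 523 bp in TD and 777 and 442 in IFE. The second, chr14:78356692-78357230, had 401 and 539 bp in TD and 422 and 319 in IFE.

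HF was not devoid of peaks around Tnfsf11. Between the distal regions lay the widest region of all 27, chr14:78351258-78353462, which was open in all 6 libraries with 2084 and 2098 bp in TD, 2205 and 2127 in IFE, and 2123 and 1853 in HF. Downstream of the gene, chr14:78244681-78245451 was also open in all 6. Inside the span, chr14:78292346-78292806 had a peak in TD replicate 2 (365 bp) and in IFE replicate 1 (387 bp) and in no other library. Just inside the 50 kb limit, the region at 48.6 kb lacked HF peaks. Just outside it, the region 60.5 kb above the span had peaks in both TD, both IFE and HF replicate 2, and the one 58.5 kb below had peaks in TD replicate 2 and IFE replicate 1.

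Tnfsf10, the TRAIL gene (chr3:27317077-27339665), had the fewest HF peaks of the 4 genes. Peaks were called at 3 and 4 of 4 regions in TD, 4 and 4 in IFE, and 0 and 1 in HF. The covered share was 71.7% and 84.0% in TD, 87.3% and 83.1% in IFE, and 0.0% and 9.8% in HF. The largest region within the span, chr3:27326317-27327800 had 1465 and 1367 bp in TD, 1423 and 1229 in IFE, and 0 and 0 in HF. At chr3:27323244-27324154, 6.6 kb downstream, the values were 650 and 496 bp in TD, 911 and 709 in IFE, and 0 and 0 in HF. The region at the start site, chr3:27316693-27317880, had 969 and 1175 bp in TD, 1002 and 957 in IFE, and 0 and 422 in HF. The distal region, chr3:27283128-27283844, 33.2 kb below the span, had peaks in TD replicate 2 (572 bp) and both IFE libraries (418 and 679 bp).

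No region placed at Tnfsf10 was open in all 6 libraries, whereas 48.2% of all placed regions were. HF did have peaks within 50 kb, in regions nearer to Nceh1 and so not counted. Of these, chr3:27269923-27271260, 45.8 kb below the span, was open in all 6 libraries. At 49.1 kb, chr3:27267462-27267961 was open in both TD and both HF libraries and in neither IFE library. Also nearer to Nceh1, chr3:27272730-27273374 (43.7 kb) was open in both TD and both IFE libraries and in neither HF library. Regions open in both TD and both IFE libraries and in neither HF library made up 6.31% of the placed regions, and Tnfsf10 had 2 of 4, Tnfsf11 2 of 6, Tnfrsf11a 1 of 8 and Tnfrsf11b 0 of 9. At least 2 such regions were found at 740 of 15447 genes. Genes of the sort had them too, with 2 of 5 at Ly6a, 5 of 23 at Itga6 and 3 of 17 at Tnc, and 0 of 7 at Epcam. The keratinocyte list had 6 of 73 (8.22%). T cells and other immune cells are known to make or respond to these ligands, and their marker genes were counted too. Of the T cell list, 3 of 5 genes had regions, 8 in all, open at 6 and 6 in TD, 6 and 7 in IFE, and 5 and 6 in HF, while Cd3d and Cd3g had none. T cell genes had 2 of 8 regions (25.0%) open in both TD and both IFE libraries and neither HF library, against 6.31%. These were the 1 region of Cd3e and 1 of 6 at Cd2, where 1 other region was open in HF alone. The 1 region of Lck was open in all 6 libraries. Of the list for Langerhans and other immune cells, 4 of 6 genes had regions, 7 in all, open at 7 and 7 in TD, 6 and 6 in IFE, and 5 and 5 in HF, while Cd207 and Csf1r had none. There 1 of 7 regions (14.3%) was open in both TD and both IFE libraries and neither HF library, at Itgam, a myeloid gene with 3 regions. Cd74 (1 region) and H2-Aa (2 regions) were open in all 6 libraries. Ptprc, the pan-leukocyte gene, had 1 region, with peaks in both TD libraries alone. The sort required EPCAM and α6-integrin, and for TD and IFE also SCA1. The purity of the sort could not be read from the peak lists. The part of immune cells in the result at the ligand genes was not tested.

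**Figure D2:**
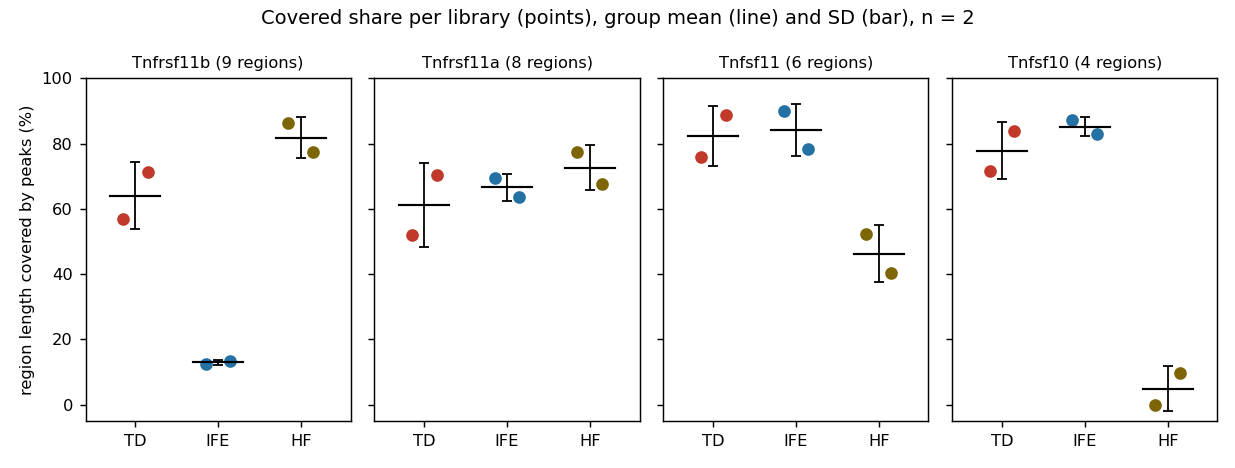
Share of each gene's summed region length that lies under peaks (%), per library (points), with the mean (line) and SD (bar) of the 2 libraries of a population. IFE is low at Tnfrsf11b (12.4% and 13.5%) and HF is low at Tnfsf10 (0.0% and 9.8%), while the populations overlap at Tnfrsf11a.

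Ordered by mean covered share, Tnfrsf11b stood at 81.8% ± 6.29 in HF, 64.1% ± 10.2 in TD and 12.9% ± 0.778 in IFE (SD, n = 2 each). The HF and TD means lay further apart than either SD, which may be technical spread, and both were far above IFE. Both HF libraries exceeded both TD libraries at 65.1% of all regions shared by TD and HF and missing from IFE. Tnfrsf11a stood at 72.6% ± 6.93 in HF, 66.6% ± 4.1 in IFE and 61.2% ± 12.9 in TD, where no neighbours differed beyond their spread. For Tnfsf11 the order was IFE 84.2% ± 8.06, TD 82.3% ± 9.19 and HF 46.3% ± 8.63, with IFE and TD within their spread. For Tnfsf10 it was IFE 85.2% ± 2.97, TD 77.8% ± 8.7 and HF 4.9% ± 6.93, again with IFE and TD within their spread. Over all placed regions the covered share ranged from 61.2% to 75.2% between libraries, both ends being TD libraries. Sequencing depth is unknown, no call is not proof of closed chromatin, and fewer open cells and weaker opening per cell cannot be told apart.

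The comparison of TD with IFE asks what sets the tdTomato-positive cells apart among SCA1-positive cells. At the members, 6 of 27 regions were open in both TD and neither IFE library, against 4.48% of all placed regions, and all 6 were at Tnfrsf11b. In the other direction there was 1 of 27, against 1.82%, also at Tnfrsf11b. The receptor gene and both ligand genes had 0 in either direction. A region open in TD alone was not among the 27, against 0.967% of all placed regions, while 1 was open in IFE alone, against 1.22%. With only the wider 50% of each library's peaks the counts were 2 and 0, and without TD replicate 2 the count toward IFE was 3.

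TD and HF differ in SCA1 and tdTomato. Of the 27 regions, 5 were open in both TD and neither HF library, against 8.02% of all placed regions, with 2 at Tnfsf11, 2 at Tnfsf10 and 1 at Tnfrsf11a. One region (1 of 27, at Tnfrsf11a) was open in both HF and neither TD library, against 7.26%. That region was open in HF alone, as were 6.22% of all placed regions. All 5 TD regions were also open in both IFE libraries. Without TD replicate 2 the count toward HF was 3, and without HF replicate 2 it was 2. Within 10 kb of the genes the counts were 3 and 0.

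IFE and HF are the populations without tdTomato. Here 7 regions were open in both IFE and neither HF library, against 9.91%, with 3 at Tnfsf10, 2 at Tnfsf11 and 1 each at Tnfrsf11a and Tnfrsf11b. The reverse was found for 8 regions, against 12.8%, with 6 at Tnfrsf11b and 2 at Tnfrsf11a. The ligand genes thus had 5 regions toward IFE and 0 toward HF. Regions shared by IFE and HF and missing from TD, 0.336% of all placed regions, numbered 0 of 27. The 3 comparisons share libraries and are not independent of each other. Within 10 kb the counts were 4 toward IFE and 5 toward HF, and with the wider 50% of peaks 3 toward IFE.

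**Figure D3:**
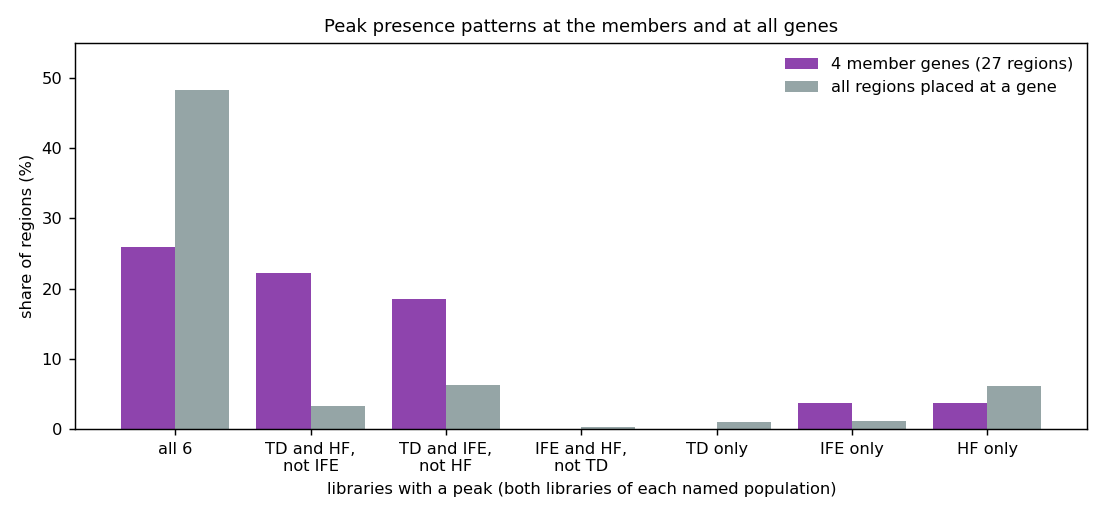
Share (%) of the 27 regions at the 4 genes (purple) and of all regions placed at a gene (grey) with each arrangement of peaks, where a named population has a peak in both libraries and an unnamed one in neither. Regions shared by TD with HF and by TD with IFE made up 22.2% and 18.5% at the members, against 3.28% and 6.31%, and the members were picked with this known.

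The 2 libraries of a population disagreed at some of these regions, in TD and HF at shares near those of all placed regions. In TD they differed at 4 of 27 (14.8%), all with the peak in replicate 2. In IFE they differed at 1 (3.7%) and in HF at 3 (11.1%). Over all placed regions the shares were 16.2%, 11.0% and 13.2%. TD replicate 2 had the most peaks of the 6 libraries (59250) and TD replicate 1 the fewest (50153). Of the TD disagreements in the whole set, 8797 favoured replicate 2 and 1353 replicate 1.

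Likeness between genes was measured as the Euclidean distance between their covered shares in the 6 libraries, over 7237 other genes with at least 3 regions. Nearest to Tnfrsf11b were Camk1g, Txndc8 and Ocm, at 12.0, 13.3 and 13.6 percentage points. Camk1g, with 8 regions, had 58.9% and 70.5% in TD, 13.2% and 9.0% in IFE, and 78.2% and 84.7% in HF. Nearest to Tnfrsf11a were Krt14, the basal keratin gene, Plekha7 and Rab15, at 3.6, 4.3 and 4.9. Nearest to Tnfsf11 were Ptcd2, Krt12 and Ndufb6, at 7.9, 8.3 and 8.3. Nearest to Tnfsf10 were Tmem45a2, Clca1 and Gna14, at 14.0, 14.2 and 14.5. Gna14, with 11 regions, had 70.1% and 84.8% in TD, 89.7% and 83.6% in IFE, and 11.9% and 17.5% in HF.

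Other genes of these pathways had regions in both directions of each comparison (open in both libraries of one population and in neither of the other). Of 48 genes of RANK, TRAIL and skin TNF family signalling, 46 had regions, 267 in all. Between TD and IFE there were 8 toward TD (3.0%, against 4.48% of all placed regions) and 9 toward IFE (3.37%, against 1.82%). Between TD and HF there were 25 toward TD (9.36%, against 8.02%) and 20 toward HF (7.49%, against 7.26%). Between IFE and HF there were 36 toward IFE (13.5%, against 9.91%) and 32 toward HF (12.0%, against 12.8%). By gene, 5 had more regions toward TD than toward IFE and 5 fewer, 13 more toward TD than toward HF and 10 fewer, and 14 more toward IFE than toward HF and 10 fewer. The median covered share of the 46 genes was 74.0% in TD, 79.1% in IFE and 72.9% in HF, against 73.6%, 76.2% and 75.0% over all genes with regions.

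Downstream of RANK, Nfatc1, the transcription factor gene of osteoclast formation that is also known from follicle stem cells, had 27 regions. Of these, 17 and 21 were open in TD, 19 and 19 in IFE, and 21 and 22 in HF. Of the 27, 1 was toward TD and 0 toward IFE, against 4.48% and 1.82% of all placed regions. Between TD and HF, 2 were toward TD and 4 toward HF, against 8.02% and 7.26%. Between IFE and HF, 4 were toward IFE and 5 toward HF, against 9.91% and 12.8%. Nfkb1, an NF-κB subunit gene, had 16 and 17 of 19 open in TD, 16 and 15 in IFE, and 15 and 15 in HF. Rel, another subunit gene, had 7 and 7 of 8 in TD, 7 and 7 in IFE, and 4 and 5 in HF. Between TD and HF it had 3 of 8 regions toward TD and 0 toward HF, against 8.02% and 7.26% of all placed regions. Map3k14, which encodes the NF-κB-inducing kinase, had 8 and 10 of 14 in TD, 11 and 11 in IFE, and 11 and 9 in HF. Lgr4, which encodes another receptor for RANKL, had 14 and 16 of 19 in TD, 12 and 13 in IFE, and 18 and 18 in HF. Its regions gave 2 toward TD and 0 toward IFE, 2 toward HF and 0 toward TD, and 5 of 19 toward HF and 0 toward IFE, where 12.8% of all placed regions were toward HF.

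Among TNF family genes with roles in skin, Tnfrsf19, a receptor gene of the family, had 14 and 15 of 18 regions open in TD, 16 and 15 in IFE, and 9 and 10 in HF. It had 5 of 18 regions open in both TD and both IFE libraries and in neither HF library, against 6.31% of all placed regions. Edar, the ectodysplasin receptor gene of hair placode formation, had 6 and 9 of 16 in TD, 8 and 9 in IFE, and 10 and 15 in HF. Eda, its ligand gene, had 3 and 3 of 6 in TD, 3 and 2 in IFE, and 4 and 4 in HF. Regions shared by TD and HF and missing from IFE, the arrangement of Tnfrsf11b, numbered 6 of 155 (3.87%) in the RANK and osteoprotegerin list, near the 3.28% of all placed regions, 0 of 23 in the TRAIL list and 0 of 89 in the TNF family list. The TRAIL list, with the death receptor gene Tnfrsf10b and 7 others, had 23 regions, of which 2 (8.7%) were toward TD and 2 (8.7%) toward HF, near the 8.02% and 7.26% of all placed regions.

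**Figure D4:**
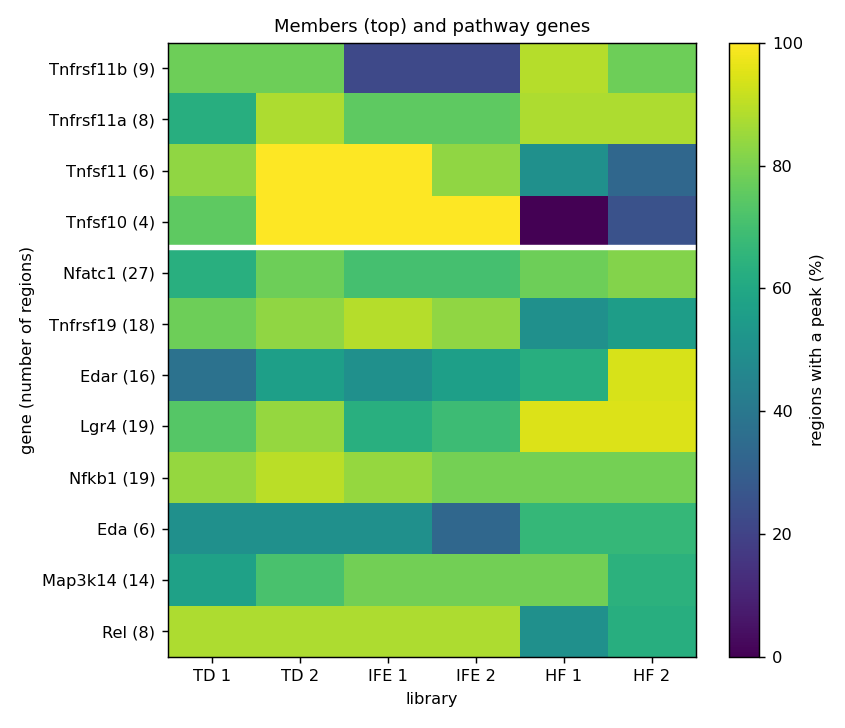
Share (%) of each gene's regions with a peak in each library for the 4 members (above the white line) and 8 pathway genes (below), with the number of regions in brackets. Tnfrsf11b is low in the IFE columns alone, and Tnfsf11, Tnfsf10, Tnfrsf19 and Rel are lowest in the HF columns.

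Marker genes were checked against the sort. Ly6a, which encodes SCA1, had 4 and 4 of 5 regions open in TD, 5 and 5 in IFE, and 2 and 2 in HF. Tnc had 17 and 17 of 17 in TD, 11 and 11 in IFE, and 13 and 12 in HF. Epcam had 6 to 7 of 7 in every library, and Itga6 had 14 and 14 of 23 in TD, 20 and 15 in IFE and 9 and 9 in HF. The keratinocyte list had 47 to 61 of 73 regions open per library. Follicle genes had 45 and 55 of 73 in TD, 39 and 39 in IFE, and 61 and 64 in HF. Merkel cell genes had 5 regions in all, with 2 and 4 open in TD, 5 and 3 in IFE and 3 and 3 in HF, and Pecam1 was the 1 endothelial gene of 3 with regions, 10 to 13 of 13 per library.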

How the data were processed

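The data were 6 ATAC-seq peak lists, 1 per library. The submitters' processing notes name build mm10 and, among tools, MACS2 2.2.7.1, SAMtools 1.9, Bowtie2 2.4.5 and Trim Galore 0.6.7. Their settings, any read filter and any Tn5 offset correction are not stated there. The deposited lists hold positions and names in 4 columns, with no score, so the presence of a peak depends on an unknown depth.

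Peaks overlapping by at least 1 bp were merged, and regions were placed at the nearest of 21887 protein-coding spans of a RefSeq table (GRCm38.p6) within 50 kb (82.9% placed). Ties went to the larger overlap, then the shorter span. Exons and introns were not used here. Coordinates count from 1. Covered length is the bp of a region under a library's peaks. No test was run, since members, gene lists and rules were chosen with earlier results of these data known. Named were the members, the sort markers, the 3 genes nearest each member in covered share, and the 8 pathway genes with most regions differing between populations, ties taken in alphabetical order (Xiap, tied with Rel at 3, fell out). Tnfrsf10b and the single markers of melanocytes, fibroblasts, immune cells and endothelium were named after their values were seen. The merging was tested on simulated peaks. Python 3.11.15, pandas 2.3.3 and NumPy 2.4.6 were used. Alternatives are given in the closing section.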

Additional observations from a re-analysis of the deposited data

How the results depend on the processing

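Counts of member regions between populations stayed within 1.5 times in 65 of 78 checks. Within 10 kb, which leaves 14 regions, they were 5 (HF and not IFE), 0 (HF and not TD), 4 (IFE and not HF) and 3 (TD and not HF). The wider 50% of peaks, which leave 16 regions, gave 2 (TD and not IFE), 0 (IFE and not TD), 3 (IFE and not HF) and 2 (HF and not TD). The last count was also 2 with a peak cover of at least 50% and when every library kept the same number of its widest peaks. Leaving out 1 library gave 6 to 7 regions for TD and not IFE, 1 to 3 for IFE and not TD, 5 to 7 for TD and not HF, 1 to 3 for HF and not TD, 7 to 8 for IFE and not HF, and 8 to 9 for HF and not IFE. For the number of regions with a peak, TD minus IFE at Tnfrsf11b stayed positive (2.5 to 5) and TD minus HF at Tnfsf11 and Tnfsf10 stayed positive (1 to 4 and 2 to 4) in all 13 alternatives. Sizes moved more: with the wider 50% of peaks IFE minus HF at Tnfsf11 was 0.5 (3 as reported), and TD minus HF at Tnfrsf11b was -2 there and with 50% cover (-0.5 as reported). Signs changed 3 times. When all regions within 50 kb counted, IFE minus HF at Tnfrsf11a went from -1 to 0.5, the added regions being nearer to Relch, and TD minus IFE at Tnfsf10 from -0.5 to 0.5. Within 10 kb, TD minus HF at Tnfrsf11a went from -1 to 0.5. No paired analysis was possible because the results come from no test. Unknown depth limits every absent peak.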
